A study of Caenorhabditis elegans with 8 samples.

Results

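The 2 arrays of *hpl-1*; *hpl-2* animals were compared with the 6 arrays of the 3 genotypes labelled with *his-24*, out of 8 arrays in all. The 3 were *hpl-2*; *hpl-1 his-24*, called the triple mutant below, and the double mutants *hpl-2*; *his-24* and *hpl-1 his-24*, with 2 arrays each, and each genotype was given the same weight. Of 17092 tested genes, 3158 had both *hpl-1*; *hpl-2* values above or below all 6 others, and 338 of these also passed the test and the limit on size given below. The alleles, as the study lists them for the arrays, were *hpl-1(tm1624)*, *hpl-2(tm1489)* and *his-24(ok1024)* in an N2 background. For the *hpl-1*; *hpl-2* double mutant, the study's scoring of phenotypes names another *hpl-1* allele. Every genotype was labelled with at least 2 of the 3 mutant genes. *hpl-1*; *hpl-2* was the only genotype not labelled with *his-24*. The *hpl-2* allele was shared by all genotypes except *hpl-1 his-24*. Neither wild-type nor single-mutant worms enter any comparison, so each difference is between mutants. Whole worms, pooled from 80 to 100 animals per sample and grown at 21 °C, were the source of RNA, of which 600 ng were labelled. The stage was L4 larvae by the study's methods and L4 and young adult by the sample labels. The samples were labelled with Cy3 and hybridized to *C. elegans* oligonucleotide arrays, 1 sample per array.

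HPL-1 and HPL-2 are the heterochromatin protein 1 homologues of *C. elegans*. Proteins of this family bind histone H3 methylated at lysine 9 through a chromodomain and are known for compacting chromatin and silencing genes. HIS-24 is a linker histone, which binds the DNA between nucleosomes, and is known for silencing in the germline. Loss of heterochromatin proteins in the worm is known to change the expression of genes in tandem families, many of them on chromosome arms.

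A level below is the log2 signal of a gene's probe relative to the 75th percentile of its array, so that 0 is a bright gene. About -7 to -9 is near background on the arrays other than those of *hpl-2*; *his-24*. On those the background lay lower, and the deleted *his-24* gave -10.26 and -10.28. Levels of different genes are not comparable, since probes differ in brightness. A difference is the *hpl-1*; *hpl-2* level minus the mean of the 3 *his-24* genotype means, tested by limma's two-sided moderated test and adjusted by Benjamini-Hochberg over 17092 tested identifiers, called genes below. Calls required both an adjusted p below 0.05 and a difference beyond 1.5 on the log2 scale. A gene was beyond all 6 when both *hpl-1*; *hpl-2* values were above the highest or below the lowest of the 6 *his-24* values, and the gap between them is its margin. A probe is described as above background where the scanner software flagged 50% or more of its spots as such, and as dark otherwise. The dimmest probe with all spots flagged lay at -6.76 and -6.51 on the *hpl-1*; *hpl-2* arrays. On the *hpl-2*; *his-24* arrays it lay at -8.15 and -8.28, so dark is not the same level on every array.

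The deleted genes served as a check of the labels. *his-24*, identifier M163.3 on chromosome X, had levels of 0.31 and 0.46 on the *hpl-1*; *hpl-2* arrays, against -10.28, -9.14 and -8.61 as the lowest, median and highest of the *his-24* arrays. It was above background on both *hpl-1*; *hpl-2* arrays and on none of the 6 others, and was at least 207-fold higher in *hpl-1*; *hpl-2*. *hpl-1* (K08H2.6, chromosome X) had levels of -9.04 and -8.81 on the *hpl-1*; *hpl-2* arrays, where it was not above background, against -0.65, -0.51 and -0.30 as the lowest, median and highest of the others, at least 70.7-fold lower. The labels give *hpl-1* as deleted in the triple mutant and in *hpl-1 his-24* too, but its probe was bright on those 4 arrays. Whether the probe lies within the deleted part of the gene is not known here. The bright signal alone therefore does not show that these labels are wrong. The arrays labelled with *hpl-1* and *his-24* are named below by their labels. The presence of *his-24* and the absence of the *hpl-1* signal mark the same 2 arrays, so their contributions to any difference below cannot be told apart. *hpl-2* was above background on all 8 arrays with both of its identifiers. The level of K01G5.2a was -0.85 and -0.78 in *hpl-1*; *hpl-2*, and its genotype means were -1.08 in the triple mutant, -1.17 in *hpl-2*; *his-24* and 0.47 in *hpl-1 his-24*.

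**Figure D1:**
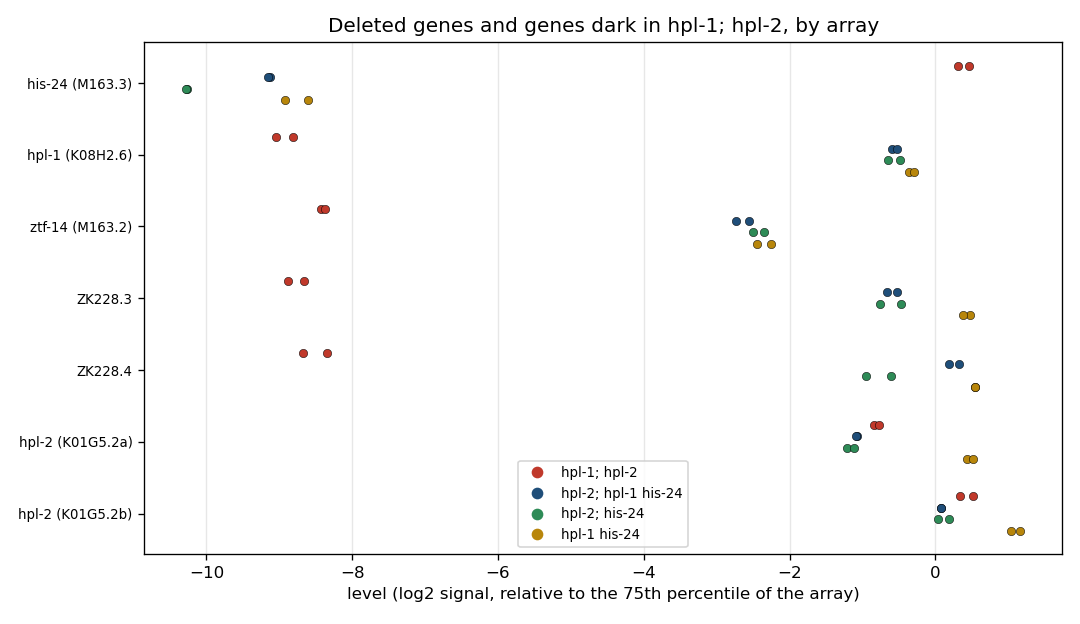
Levels of *his-24*, *hpl-1*, *hpl-2* and 3 other genes on each array. The x axis is the log2 signal relative to the 75th percentile of the array, and each point is 1 array, coloured by genotype. *his-24* was bright only on the 2 *hpl-1*; *hpl-2* arrays, whereas *hpl-1*, *ztf-14*, ZK228.3 and ZK228.4 were dark only there.

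Of the lower members described below, 42 were above background on all 6 *his-24* arrays and dark on both *hpl-1*; *hpl-2* arrays, *hpl-1* among them, and 3 others are given here. ZK228.3 and ZK228.4 lie next to each other on chromosome V. ZK228.3 had levels of -8.88 and -8.66 in *hpl-1*; *hpl-2* worms, against -0.75, -0.50 and 0.47 (lowest, median, highest) on the *his-24* arrays, at least 82.8-fold lower. ZK228.4 had levels of -8.35 and -8.68, against -0.96, 0.25 and 0.54, at least 99.6-fold lower. Another was *ztf-14* (M163.2), which encodes a zinc finger protein and is the next gene after *his-24* on chromosome X. Its levels were -8.43 and -8.37 in *hpl-1*; *hpl-2* worms, against -2.73, -2.48 and -2.25 in the others, at least 17.85-fold lower (difference -5.93, standard error 0.10, adjusted p = 1.27e-06 from limma). That the groups did not overlap in these 3 follows from how the members were chosen and is not a further result. *gfi-3*, the nearest measured gene on the other side of *his-24*, had a difference of 0.15 (adjusted p = 0.30), and M163.1, beyond *ztf-14*, one of 0.18 (adjusted p = 0.29). Around *hpl-1*, *nhr-32* differed by -0.08 (adjusted p = 0.52) and K08H2.5 by 1.21 (adjusted p = 0.0147).

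Over the whole array, 1844 genes (10.8% of those tested) were above all 6 *his-24* values and 1314 (7.69%) were below, 3158 in all. Most of these differences were small, with a median margin of 0.15 among the 1844 and 0.17 among the 1314. Of the tested genes, 243 (1.42%) were called higher and 237 (1.39%) lower in *hpl-1*; *hpl-2*, while the adjusted p alone passed in 2767 (16.2%) and 2354 (13.8%). The median difference of all genes was 0.03. Both criteria together left 185 higher genes (1.08%) and 153 lower ones (0.895%), 338 in all, which are the members described below. With normexp background correction these counts were 85 and 73. Because being beyond all 6 is how the members were chosen, that separation is a description and not a test. The median margin was 0.61 in the 185 and 0.90 in the 153, and 47 and 66 of them had a margin over 1. Signal strength differed between the directions. Of the 185 higher members, 106 were above background on all 8 arrays and 3 were dark on all 6 *his-24* arrays. Of the 153 lower members, 80 were above background on all 8 and 66 were dark on both *hpl-1*; *hpl-2* arrays. The counts of dark genes are not like for like. They rest on different numbers of arrays, and a level dark in *hpl-1*; *hpl-2* could be above background in *hpl-2*; *his-24*.

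**Figure D2:**
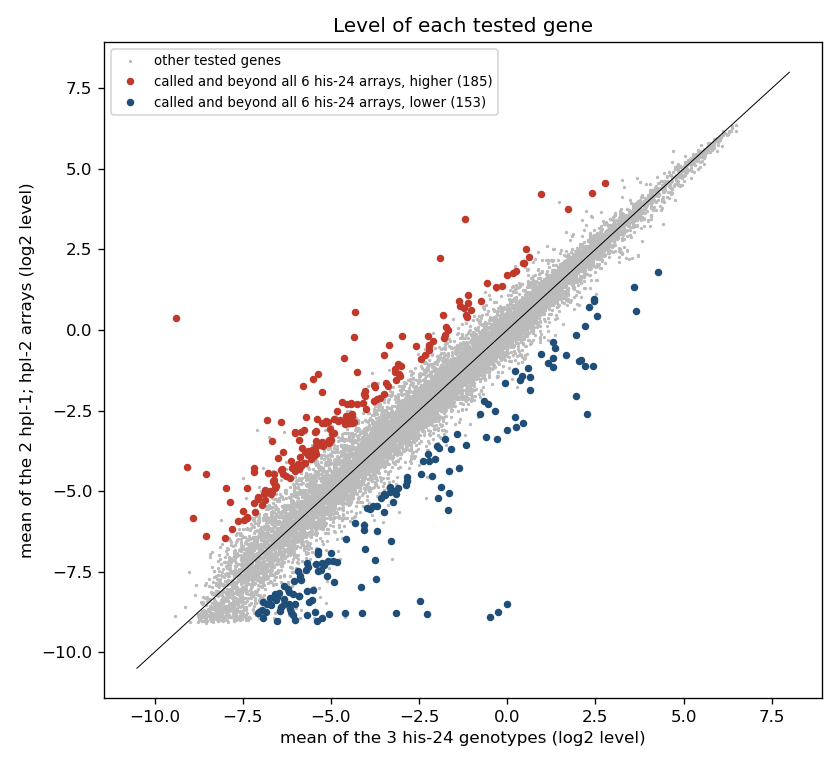
Mean level of each tested gene in *hpl-1*; *hpl-2* (y axis) against the mean of the 3 *his-24* genotypes (x axis), both on the log2 scale, with 185 higher and 153 lower members in colour. Many lower members lie along the bottom, where *hpl-1*; *hpl-2* was near background, whereas the higher ones spread over the range of levels.

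At the edge of the criterion, *srg-53* was just inside on the higher side, with levels of -3.98 and -3.81 in *hpl-1*; *hpl-2* and a highest *his-24* value of -3.98. *str-146*, also just inside, had -4.42 and -4.20 against a highest value of -4.43. Just outside were *ugt-8*, with -0.84 and -0.75 against a highest value of -0.83, and *srm-1*, with -2.61 and -2.52 against -2.59. On the lower side K06H6.1 (-7.90 and -7.56, against a lowest *his-24* value of -7.49) and *fipr-24* (-5.46 and -4.95, against -4.86) were just inside. F14F9.2 (-7.12 and -7.66, against -7.12) and *lips-8* (-8.57 and -8.06, against -8.07) were just outside.

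The comparisons with single genotypes share the *hpl-1*; *hpl-2* arrays. Against the triple mutant 217 genes (1.27%) were called higher and 456 (2.67%) lower. Against *hpl-2*; *his-24* the counts were 950 (5.56%) and 421 (2.46%). That comparison is without the 4 arrays labelled with *hpl-1* on which its probe was bright. Against *hpl-1 his-24* the counts were 840 (4.91%) and 555 (3.25%). Of the members, 93 of the 185 higher and 107 of the 153 lower ones were called against *hpl-2*; *his-24*, 86 and 115 against the triple mutant and 137 and 105 against *hpl-1 his-24*. The *his-24* genotypes differed widely among themselves, and an F test over the 3, from the same fit, passed in 12628 genes (73.9%) at an adjusted p below 0.05. It passed in 179 of the 185 higher and 133 of the 153 lower members. A member's difference from the mean of the 3 therefore often had a different size against each, and the genotype means are given where this was large.

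Among the higher members with the widest margins, F40G12.9 (chromosome V) had the widest of those above background on all 8 arrays, 3.82. Its levels were -1.78 and -1.69 in *hpl-1*; *hpl-2* worms, against -6.01, -5.79 and -5.59 (lowest, median, highest) on the *his-24* arrays, a difference of 4.06 (standard error 0.08, adjusted p = 3.31e-06). R08F11.7 had levels of -2.72 and -2.78, against -5.61, -5.33 and -5.25, with a difference of 2.64 (standard error 0.12, adjusted p = 7.22e-05). In these 2 genes the *his-24* genotypes lay close together, and the F test among them gave adjusted p values of 0.0626 and 0.622. Y45G12C.4 had levels of 0.46 and 0.62, and genotype means of -4.96 in the triple mutant, -5.96 in *hpl-2*; *his-24* and -2.03 in *hpl-1 his-24*. Its difference was 4.86 (standard error 0.12, adjusted p = 8.17e-06), but only 2.57 against *hpl-1 his-24* alone. T26E4.10 had levels of -3.003 and -2.69, against -7.44, -6.12 and -5.54, with a difference of 3.57. Its neighbour T26E4.9 had levels of -4.43 and -4.10, was dark on all 6 *his-24* arrays and was at least 8.25-fold higher in *hpl-1*; *hpl-2*. *rabr-4* was also dark on those 6 arrays, with levels of -5.93 and -5.75 in *hpl-1*; *hpl-2*, at least 2.77-fold higher. ZK218.5 had levels of -1.41 and -1.34, against -6.93, -5.71 and -3.85, and ZK218.1, ZK218.3, ZK218.7 and ZK218.11 beside it on chromosome V were higher members too. *dct-19*, a gene named as a target of the FOXO factor DAF-16, had levels of -1.97 and -1.88, against -6.01, -5.63 and -4.11. R07C12.1 (difference 2.81) and W02F12.2 (2.15) completed the single genes of this group, and the remaining ones were lectins and a cytochrome P450, described with their families.

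Among the lower members *tcc-1* (chromosome V), which encodes a transmembrane and coiled-coil protein, had the widest margin of those above background on all 8 arrays, 3.71. Its levels were -1.94 and -2.14 in *hpl-1*; *hpl-2* worms, against 1.77, 1.94 and 2.21 on the *his-24* arrays. The difference was -3.99 (standard error 0.12, adjusted p = 1.73e-05), a 15.9-fold lower signal, and the *his-24* genotypes did not pass the F test (adjusted p = 0.461). *csn-1*, the next measured gene, differed by -0.46. *irg-5*, an infection response gene, had levels of 0.57 and 0.61, against 3.29, 3.70 and 3.92, a difference of -3.06 (standard error 0.08, adjusted p = 8.17e-06). *cpt-3*, a carnitine palmitoyltransferase gene of fatty acid import into mitochondria, had levels of -4.37 and -4.19, against -2.66, -1.51 and 0.50. *scl-20*, of the secreted SCP family, had levels of -5.63 and -5.51 and genotype means of -3.43 in the triple mutant, 0.88 in *hpl-2*; *his-24* and -2.46 in *hpl-1 his-24*. *clec-101* was dark in *hpl-1*; *hpl-2*, with levels of -8.90 and -8.73, against -4.15, -2.36 and 0.18, and was at least 20.6-fold lower. Its *his-24* arrays were scattered, and within *hpl-2*; *his-24* the 2 replicates were 0.18 and -3.64.

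**Figure D3:**
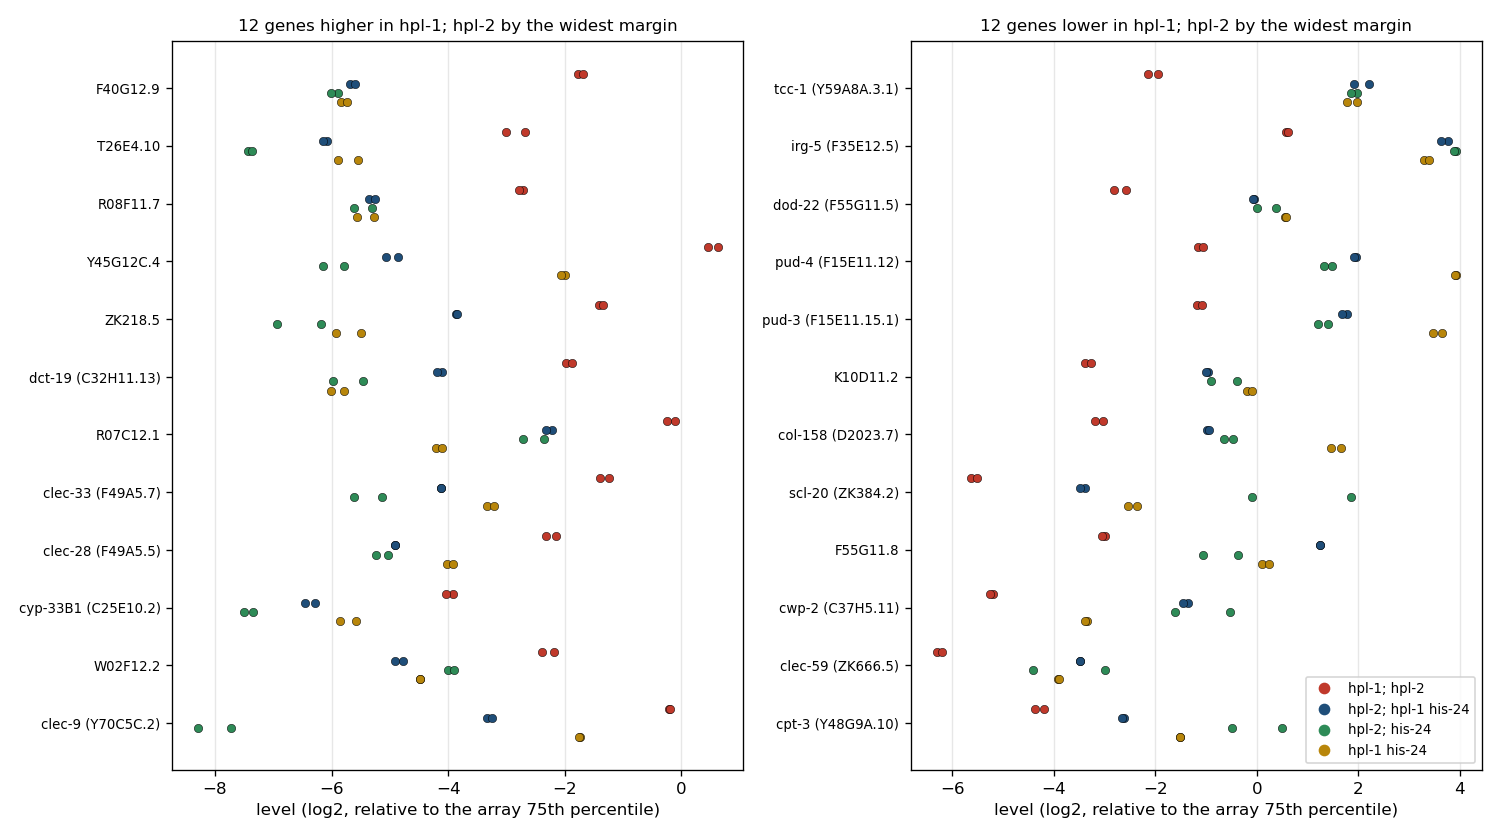
Levels of the 12 higher (left) and 12 lower (right) members with the widest margins among those above background on all 8 arrays. Each point is 1 array on the log2 scale of the x axis, coloured by genotype. The 2 *hpl-1*; *hpl-2* points lie together and apart from the rest, while the *his-24* genotypes lie close together in F40G12.9, R08F11.7 and *tcc-1* and far apart in *clec-9* and *scl-20*.

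Several members were neighbours in the genome. Of the 168 higher member genes with a position, 39 lay in 16 runs of genes within 3 gene places of one another, and of the 144 lower ones, 44 lay in 19 runs. No such share was computed for all tested genes, so these counts alone do not show that members cluster. A single probe can report several near-identical copies, so values within such families are uncertain as to which copy they measure. On chromosome IV the run F55G11.6, F55G11.7, F55G11.8 and *dod-22* was lower throughout. *dod-22*, which is named as a gene downstream of DAF-16, had levels of -2.82 and -2.57 in *hpl-1*; *hpl-2* worms, against -0.09, 0.19 and 0.57 in the others (difference -2.92, adjusted p = 5.68e-05). F55G11.8 had levels of -2.98 and -3.06, against -1.06, 0.18 and 1.25 (difference -3.26). K10D11.2, 4 gene places further, had -3.39 and -3.28, against -1.01, -0.65 and -0.10. Of the 3 genes between *dod-22* and K10D11.2, F55G11.2 differed by -0.18 (adjusted p = 0.13), *mbug-1* by -0.87 (adjusted p = 0.00105, below all 6) and *dod-17* by -1.16 (adjusted p = 0.00101, within the range of the 6), while *dct-19*, on the other side, was higher.

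The *pud* genes, named for proteins that are more abundant in *daf-2* insulin receptor mutants, formed a lower run on chromosome V. *pud-4* had levels of -1.15 and -1.06 in *hpl-1*; *hpl-2* worms, against genotype means of 1.94 in the triple mutant, 1.403 in *hpl-2*; *his-24* and 3.92 in *hpl-1 his-24*, a difference of -3.53 (standard error 0.08, adjusted p = 4.62e-06). *pud-3* had -1.19 and -1.07, against 1.20, 1.73 and 3.65. *pud-1.1* and *pud-2.1*, which have near-identical copies elsewhere, differed by -2.48 and -2.23. All 4 were highest in *hpl-1 his-24*.

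**Figure D4:**
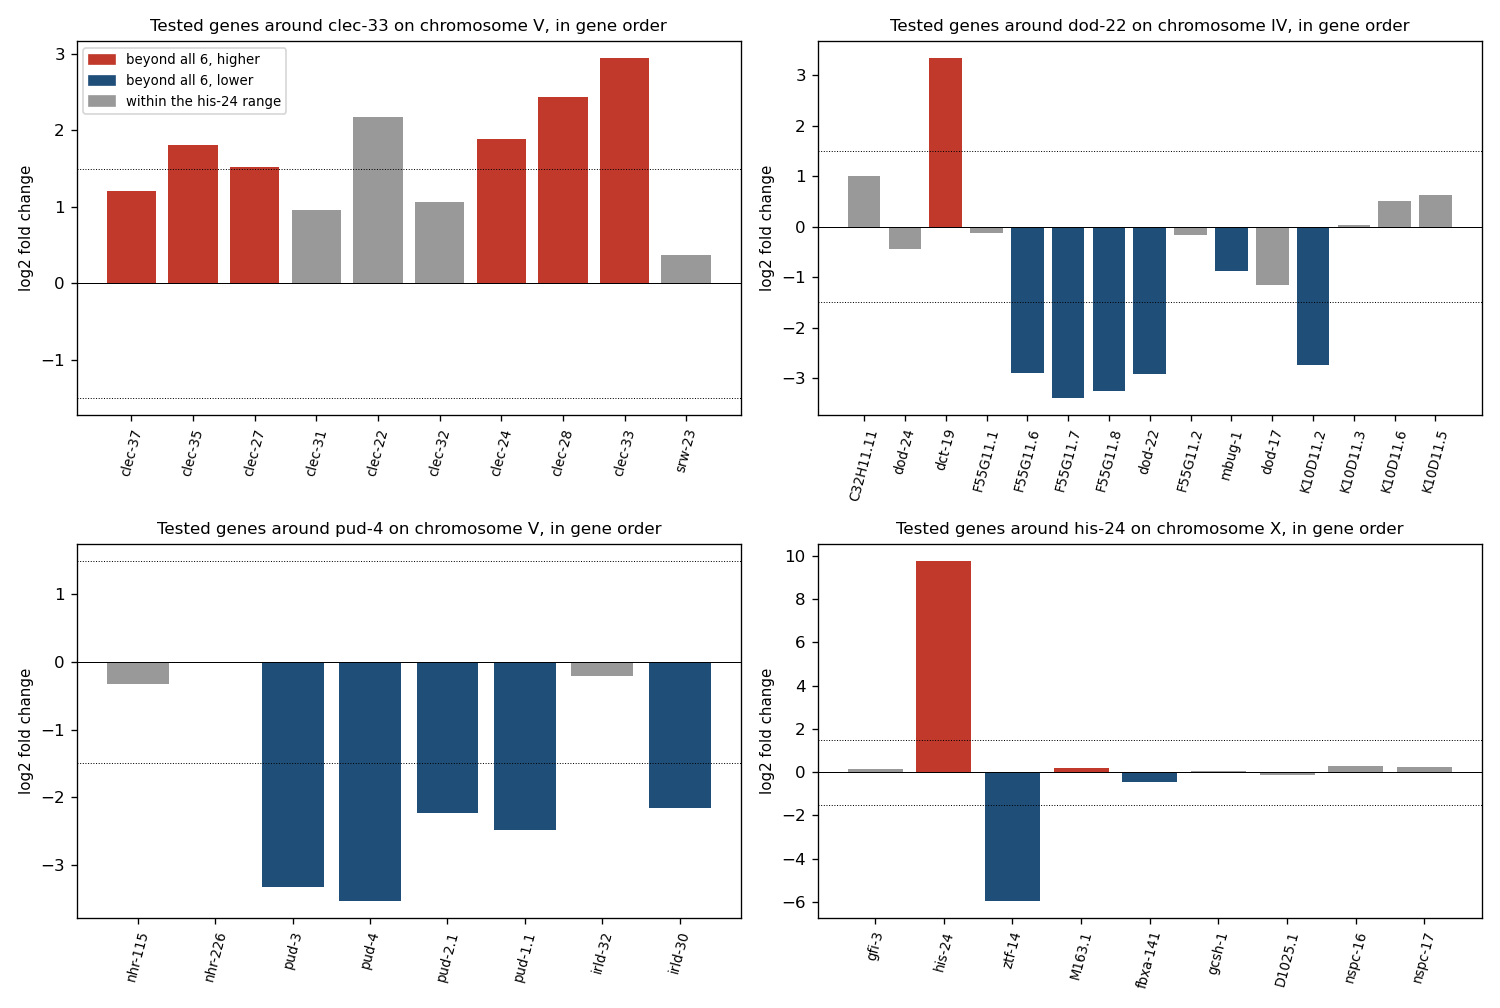
Difference between *hpl-1*; *hpl-2* and the mean of the 3 *his-24* genotypes (y axis, log2) for tested genes in gene order around *clec-33*, *dod-22*, *pud-4* and *his-24*. Colour marks genes beyond all 6 *his-24* arrays, and dotted lines mark the limit of 1.5. Neighbouring lectin genes were higher, neighbouring F55G11 and *pud* genes were lower, and beside *his-24* only *ztf-14* was far from 0.

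C-type lectins, carbohydrate-binding proteins many of which respond to infection, stood out in both directions. Of 181 tested, 13 were higher and 14 lower members, 7.18% and 7.73% against 1.08% and 0.895% of all genes, with a median difference of 0.01. The higher ones included a stretch of chromosome V. *clec-33* had levels of -1.40 and -1.23 in *hpl-1*; *hpl-2* worms, against -5.62, -4.12 and -3.22 (difference 2.94, standard error 0.14, adjusted p = 7.38e-05). *clec-28*, beside it, had -2.32 and -2.15, against -5.24, -4.91 and -3.92 (difference 2.44). *clec-24*, *clec-26*, *clec-27* and *clec-35* nearby were higher members by 1.53 to 1.89. *clec-22*, *clec-31* and *clec-32*, in the same stretch, were not beyond all 6, since *hpl-2*; *his-24* replicate 1 lay above the lower of the *hpl-1*; *hpl-2* values by 0.10, 0.55 and 0.02, and in *clec-31* above both. *clec-9* had levels of -0.22 and -0.20, and genotype means of -3.29, -8.01 and -1.75 in the triple mutant, *hpl-2*; *his-24* and *hpl-1 his-24*. Among the lower lectins *clec-67* had levels of -0.22 and -0.10, against 1.23, 2.13 and 2.26, and *clec-68*, its neighbour on chromosome IV, had -0.87 and -0.90, against 0.57, 1.49 and 1.64. *clec-59* differed by -2.56 and the *his-24* genotypes did not pass the F test among themselves (adjusted p = 0.631). Of the 14 lower lectins, 6 were dark on both *hpl-1*; *hpl-2* arrays. Without *hpl-2*; *his-24* in the mean, 14 lectins were higher and 40 lower members.

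Lysozymes, saposins and other defence effectors were members mostly on the lower side. Of 101 tested, 2 were higher and 8 lower members (1.98% and 7.92%), with a median difference of -0.15. Besides *irg-5* and *dod-22*, the infection response gene *irg-4* had levels of 0.37 and 0.51 in *hpl-1*; *hpl-2* worms, against 1.59, 2.95 and 3.12 (difference -2.12, adjusted p = 4.16e-05). *irg-6* had -1.62 and -1.47, against -0.54, 0.34 and 1.21. *abf-4*, of an antibacterial peptide family, was higher, with -4.59 and -4.24 against -8.75, -6.85 and -5.85.

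F-box genes encode substrate adaptors of ubiquitin ligases and are a large family in nematodes. Of 299 tested, 20 were higher and 7 lower members (6.69% and 2.34%), with a median difference of 0.19. The subfamilies differed in direction: of 87 *fbxb* genes 15 were higher and 0 lower members, and of 170 *fbxa* genes 3 were higher and 7 lower. *fbxb-83* had levels of -2.34 and -2.18 in *hpl-1*; *hpl-2*, and genotype means of -3.58 in the triple mutant, -3.18 in *hpl-2*; *his-24* and -5.53 in *hpl-1 his-24*. All 20 higher members were called against *hpl-1 his-24*, 2 against the triple mutant and 0 against *hpl-2*; *his-24*. Without *hpl-1 his-24* in the mean, 0 F-box genes were higher members, and with normexp background correction 2 were. Only 5 of the 20 were above background on all 8 arrays. The lower *fbxa-185* had levels of -4.54 and -4.51, against -3.06, -2.15 and -1.33, and *fbxa-107* had -2.29 and -2.33, against -1.21, -0.38 and -0.10. Chemoreceptor genes, which are expressed in sensory neurons, showed the same imbalance. Of 280 tested, 9 were higher and 4 lower members (3.21% and 1.43%, against 1.08% and 0.895% of all genes). Of the 1112 chemoreceptor identifiers measured, 665 were dark on all 8 arrays, and only 3 of the 9 were above background on all 8. The 9 were called against *hpl-1 his-24* in every case, 1 of them against *hpl-2*; *his-24* and 0 against the triple mutant. Without *hpl-1 his-24* in the mean 2 were higher members, and with normexp 4. *srx-70* had levels of -0.21 and -0.16, and means of -0.66, -0.88 and -5.22 in the triple mutant, *hpl-2*; *his-24* and *hpl-1 his-24*.

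Cytochrome P450 genes, which oxidize foreign and endogenous small molecules, held 7 higher and 2 lower members of 74 tested (9.46% and 2.70%), although their median difference was -0.22. *cyp-35A3* had levels of 3.46 and 3.45 in *hpl-1*; *hpl-2*, and genotype means of -1.15 in the triple mutant, -5.01 in *hpl-2*; *his-24* and 2.58 in *hpl-1 his-24*. All 7 were called against the triple mutant and against *hpl-2*; *his-24*, and 1, *cyp-33B1*, against *hpl-1 his-24*. *cyp-33B1* had levels of -3.92 and -4.03, against -7.50, -6.37 and -5.58 (difference 2.53). The neighbours *cyp-13A4* (0.93 and 0.86, against -1.505, -0.65 and -0.14) and *cyp-13A5* (1.69 and 1.73, against -0.87, 0.11 and 0.57) were higher on chromosome II, whereas *cyp-13A6* and *cyp-13A8* in the same tandem array differed by -0.86 and -0.75. Of 63 UDP-glucuronosyltransferases, which conjugate small molecules for excretion, 3 were higher (4.76%) and 0 lower members. Of 44 glutathione S-transferases, *gst-25* was the one member, higher by 2.27.

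Collagens and hedgehog-related genes were members on the lower side alone. Of 165 cuticle collagens 0 were higher and 5 lower members (0% and 3.03%, against 1.08% and 0.895% of all genes), with a median difference of -0.14. Without *hpl-2*; *his-24* in the mean 24 collagens were lower members, and leaving out its replicate 1 alone left 5. *col-158* had levels of -3.04 and -3.18 in *hpl-1*; *hpl-2* worms, against -0.99, -0.56 and 1.65 (difference -3.12, standard error 0.09, adjusted p = 1.95e-05). *col-43* had -1.02 and -0.88, against 0.32, 1.63 and 3.97, and *col-50* and *col-123* differed by -3.02 and -1.83. *col-183* had -3.54 and -3.67, against -2.25, -2.05 and -1.49. In *hpl-1 his-24*, *col-158*, *col-43* and *col-50* were brightest, with means of 1.55, 3.95 and 0.07. Of 79 hedgehog-related genes, a family expanded in nematodes and expressed in the epidermis, 4 were lower (5.06%) and 0 higher members. The median difference of the 79 was -0.31. Of the 4 lower members, 3 were dark on both *hpl-1*; *hpl-2* arrays and 1 was above background on all 8. *grl-25* was dark in *hpl-1*; *hpl-2* and at least 11.06-fold lower, and *grl-9* had levels of -3.68 and -3.68, against -2.23, -1.60 and -1.04. *hpl-2*; *his-24* replicate 1 stood apart for collagens: *dpy-13* had a level of -0.40 there and 4.15 in replicate 2, and *rol-6* -1.79 and 1.46. The replicates of that genotype differed by an SD of 0.53 across genes, against 0.24 to 0.26 in the others. Without *hpl-2*; *his-24* replicate 1, 185 genes were higher and 170 lower members.

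Genes of hormones and metabolism gave small counts. Of 24 insulin-like peptide genes, *ins-7* and *ins-8*, close to each other on chromosome IV, were higher members (8.33%, against 1.08% of all genes). Another 1 was called lower but was not below all 6, and differences in the family ran from -4.32 to 4.02. *ins-7*, which acts on the insulin receptor DAF-2, had levels of 1.70 and 1.94 in *hpl-1*; *hpl-2*, and genotype means of 1.26, 0.48 and -1.02 in the triple mutant, *hpl-2*; *his-24* and *hpl-1 his-24* (difference 1.58, adjusted p = 0.000302). *ins-8* had -2.87 and -2.70, against -8.93, -6.68 and -4.38. Of the 11 tested identifiers of insulin signalling genes, 0 were called. *far-3*, of the fatty acid and retinol binding proteins, was lower, with 0.06 and 0.19 against 1.28, 1.89 and 3.96, and so was the neuropeptide gene *nlp-39*, with -1.63 and -1.28 against -0.59, 0.83 and 1.68. *acdh-2*, an acyl-CoA dehydrogenase gene, was higher with both of its identifiers, by 3.02 and 2.91, and its means in *hpl-1 his-24* were close, so that the differences from that genotype alone were 0.77 and 0.30.

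Of 9 identifiers of superoxide dismutases and catalases, which remove reactive oxygen, 6 were below all 6 *his-24* values (66.7%, against 7.69% of all genes), with a median difference of -0.39, but 0 were called. *sod-3* had levels of -0.83 and -0.68 in *hpl-1*; *hpl-2* worms, against -0.35, 0.33 and 0.90 (difference -1.13, adjusted p = 0.00195, short of the limit of 1.5). Of 14 small heat shock proteins *hsp-12.3* was a lower member, with -1.43 and -1.42 against -0.82, 0.08 and 1.86.

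**Figure D5:**
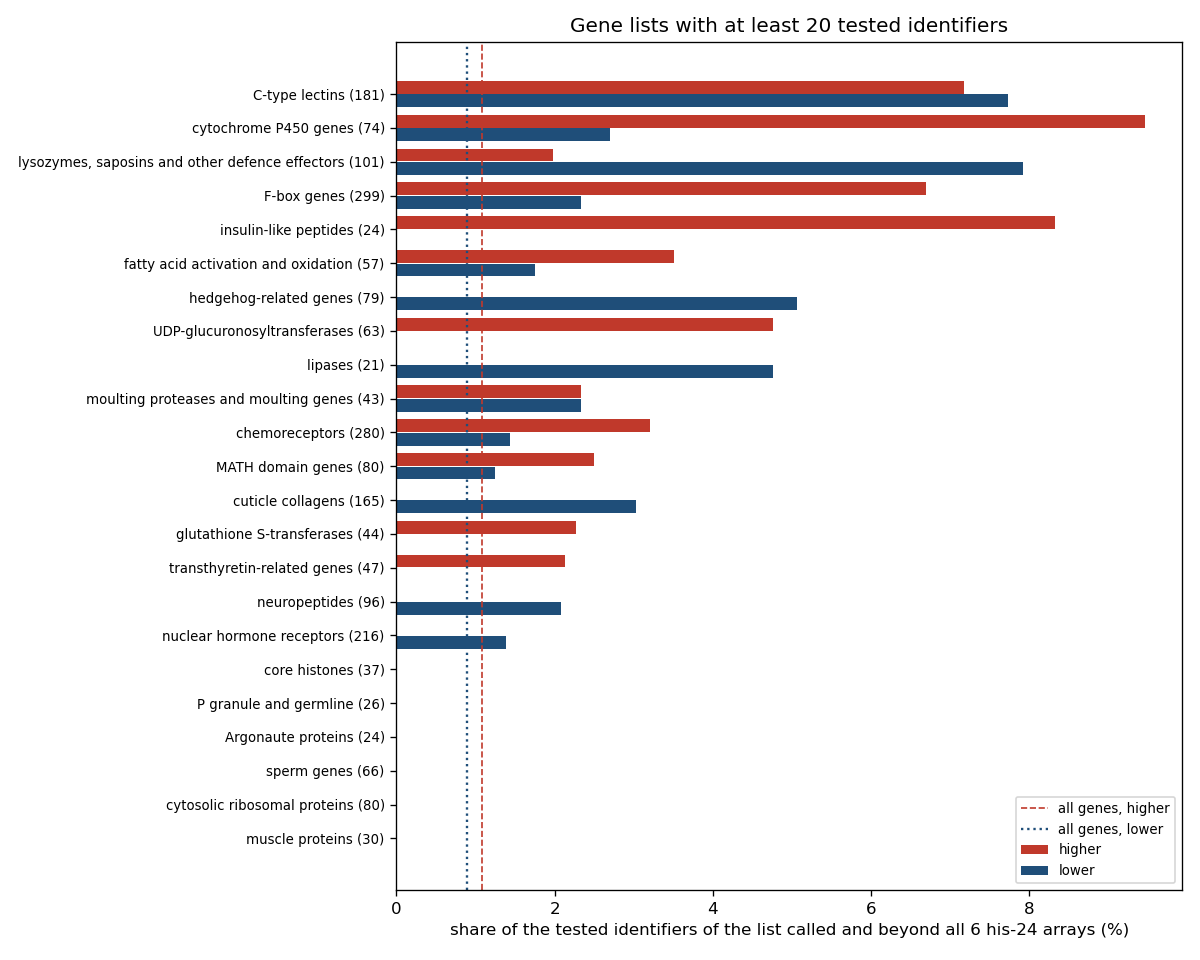
Share of each gene list with at least 20 tested identifiers that was a higher or lower member (x axis, percent), with the number tested in brackets. Dashed and dotted lines give the share of all tested genes, 1.08% and 0.895%. Lectins, cytochrome P450, defence and F-box genes stand above them, and 6 of the lists shown had no member.

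In the lists of chromatin and germline genes, apart from the deleted genes, 0 were called. Of the 7 tested linker histone genes besides *his-24*, 0 were called. *hil-1* had levels of -0.77 and -1.003, against -0.71, -0.09 and 0.40 (difference -0.74, adjusted p = 0.00514, and 0.064 without *hpl-1*; *hpl-2* replicate 2), *hil-5* differed by 0.29 (adjusted p = 0.044), and *hil-2*, *hil-3*, *hil-4*, *hil-6* and *hil-7* had adjusted p values of 0.13 or more. Of 37 core histone genes 15 were above all 6 values and 1 below (40.5% and 2.70%, against 10.8% and 7.69%), with a median difference of 0.28 and 0 called. *his-74* had levels of 3.13 and 3.46, against 2.48, 2.83 and 2.94. Several histone genes are near-identical in sequence, so their probes may share signal. Of the 12 tested identifiers for methylation of histone H3 lysine 9 and anchoring of heterochromatin, 14 of the synMuv B and DREAM repressors, 8 of the Polycomb-related and MES proteins and 9 of dosage compensation, 0 were called. Of 6 tested Hox identifiers, *egl-5*, which acts in the tail, was below all 6, with -5.63 and -5.46 against -5.02, -4.82 and -4.41 (difference -0.74, adjusted p = 0.0087, and 0.0725 or 0.0547 without 1 of the *hpl-1*; *hpl-2* arrays), and 0 were called. Of 26 identifiers of P granule and germline genes, 9 were above all 6 values and 0 below (34.6% and 0%, against 10.8% and 7.69%). Their median difference was 0.18 and 0 were called. *glh-2*, a germline RNA helicase gene, had levels of 1.56 and 1.44, against 0.85, 0.90 and 1.15 (difference 0.56, adjusted p = 0.0036). Of 66 sperm genes, 17 of the oocyte and eggshell and 7 identifiers of yolk proteins, 0 were called.

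Markers of tissues were compared because whole worms mix all of them, and in such samples fewer cells of a type and less RNA per cell cannot be told apart. Markers of intestine, body wall muscle, hypodermis, neurons, germline, sperm and oocytes were above background on all 8 arrays, and 0 of them were called. Over all genes, 16.2% were higher and 13.8% lower at an adjusted p below 0.05, and 10.8% were above and 7.69% below all 6. All 5 germline markers, though not called, were higher at an adjusted p below 0.05, by 0.31 to 0.38, and 3 were above all 6. Their summed signal was 56.7 and 65.9 times the 75th percentile in *hpl-1*; *hpl-2*, and 38.4 to 54.1 on the others. Of 5 embryo markers 4 were higher at an adjusted p below 0.05, 1 was above all 6 and 1, *tbx-37*, was called (difference 1.98, adjusted p = 0.00169) but lay within the range of the 6. They summed to 0.228 and 0.231 in *hpl-1*; *hpl-2*, and 0.116 to 0.226 on the others, and 2 of the 5 were above background on all 8 arrays. All 5 identifiers of the 4 pharynx markers were above all 6 *his-24* values. *tnt-4*, a troponin T gene of pharyngeal muscle, had levels of 0.56 and 0.66 in *hpl-1*; *hpl-2* worms, against -1.36, -1.06 and -0.67 (difference 1.65, standard error 0.08, adjusted p = 7.65e-05), and its other identifier differed by 1.64. *myo-1* and *myo-2*, which encode pharyngeal myosin heavy chains, differed by 1.22 (adjusted p = 0.00112) and 1.02 (adjusted p = 0.0014), and *ceh-22*, a homeobox factor of pharyngeal muscle, by 0.81 with a margin of 0.02. The summed signal of the 5 was 3.35 and 3.36 times the 75th percentile in *hpl-1*; *hpl-2*, and 0.949 to 1.43 on the others. The body wall muscle markers summed to 14.9 to 15.4 in *hpl-1*; *hpl-2* and 13.3 to 18.4 on the others. Hypodermis markers differed from the mean of the 3 genotypes by -0.09 to 0.24, but their sums were uneven. These were 19.2 and 19.8 for *hpl-1*; *hpl-2*, 30.9 to 33.2 for the triple mutant and 39.0 to 41.2 for *hpl-1 his-24*. Replicates 1 and 2 of *hpl-2*; *his-24* gave 3.83 and 23.5. With that replicate 1 in the mean, the lack of calls does not show that hypodermis signal was unchanged. Male markers were lower. *cwp-1* and *cwp-2*, of male sensory neurons, were lower members, and *cwp-2* had levels of -5.20 and -5.25 in *hpl-1*; *hpl-2* and genotype means of -1.41, -1.07 and -3.37 in the triple mutant, *hpl-2*; *his-24* and *hpl-1 his-24*, and *cwp-1* was dark in *hpl-1*; *hpl-2* and at least 4.11-fold lower. All 6 identifiers of the 5 male markers, *cwp-1* among them, were lower at an adjusted p below 0.05. Of these, 2 were called and 1, *cwp-1*, was below all 6. Only 2 of the 6 were above background on all 8 arrays. The 6 summed to 0.0849 to 0.0927 in *hpl-1*; *hpl-2*, 0.107 to 0.112 in *hpl-1 his-24* and 0.288 to 0.469 in the other 2 genotypes. Their part in the other differences was not tested.

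The members were unevenly spread over chromosomes. Chromosome V held 21.3% of the tested genes, 81 of the 185 higher members (43.8%) and 53 of the 153 lower ones (34.6%). Chromosome II, with 17.6% of the tested genes, held 40 higher and 18 lower members (21.6% and 11.8%). Chromosome IV, with 16.6%, held 29 and 36 (15.7% and 23.5%). Chromosome I, with 15.5%, held 10 and 23 (5.41% and 15%), and chromosome III, with 14.7%, held 12 and 11 (6.49% and 7.19%). Chromosome X, with *his-24* and *hpl-1*, held 14.3% of the tested genes and 13 higher and 12 lower members (7.03% and 7.84%).

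A within-slide reading was possible against the triple mutant alone, on 2 slides that each held 1 array of it and 1 of *hpl-1*; *hpl-2*. *hpl-2*; *his-24* lay on 1 slide of its own, scanned on another day than the rest, and both *hpl-1 his-24* arrays had a slide without any other genotype, so slide and genotype cannot be told apart for these. Against the triple mutant on the same slide, *tcc-1* differed by -4.15 and -4.06, F40G12.9 by 3.82 and 3.999, *irg-5* by -3.07 and -3.15, *pud-4* by -3.06 and -3.02 and *tnt-4* by 1.66 and 1.69. Of the members, 81 of 185 higher and 110 of 153 lower differed by more than 1.5 on both slides.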

How the data were processed

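Gene expression was measured on 8 one-colour Agilent arrays with 2 replicates of pooled worms per genotype, independent ones per the labels, and p-values measure the spread between them. The intensities were made by the authors with Feature Extraction (version 9.5.3.1 per the file headers), which subtracted a background and did not normalize between arrays. The authors also deposited a table of log2 values, whose columns follow the log2 median brightness of the same arrays (r of 0.998 or more) with nearly the same sorted values in each column, and was used as an alternative only. Unused columns numbered 0. The build of the probe positions is not given in the sources used here, so only chromosomes and the gene order of WBcel235 were used.

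Of 42964 non-control spots per array, 92 to 238 flagged outliers were left out. The log2 signal was expressed relative to the 75th percentile of the array, which was 4613 to 8501 intensity units, with a median local background of 48 to 56.5. Spots of a probe were averaged, and each of 20113 identifiers was represented by its brightest probe. Of 20401 probes, 77.3% to 84.7% were above background on an array. The 17092 identifiers tested were those above background on both replicates of some genotype. Genotype means were estimated in limma 3.58.1 under R 4.3.3, with 4 residual and 2.43 prior degrees of freedom. The fit was tested on simulated data. The number of arrays limits the precision, and an interval of counting error does not apply. Where a gene was dark in a group, the fold given is the least it could be: on each array the dark gene was set to its measured level or to that of the dimmest probe detected there, whichever was higher.

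Genes named were the deleted, linker histone and Hox genes, in each direction the 12 members with the widest margin above background on all 8 arrays, the 5 with the largest lower bound, the genes at the edge of the criterion and up to 4 members per list and direction. Neighbours, tissue markers, histone, P granule and dismutase genes and some further family members were named after their values were seen. Lists were matched by symbol through the reference annotation (18124 of 19441 genes). The members and lists were chosen with earlier results of these data known. Replicate numbers did not pair the samples. The alternatives were quantile normalization, normexp with an offset of 50, the deposited log2 table, other filters, the mean over probes, slide and replicate blocks, leaving out each array or genotype, and the shared slides alone. Python 3.11.15, pandas 2.3.3 and matplotlib 3.10.9 were used.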

Additional observations from a re-analysis of the deposited data

Results flagged for a closer look

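In *clec-9* (Y70C5C.2) and *scl-20* (ZK384.2) the *his-24* genotypes differed among themselves by more than *hpl-1*; *hpl-2* differed from their mean. The difference of *clec-9* from the mean was 4.14, and the genotype means spanned 6.26 on the log2 scale (adjusted p = 5.06e-06 from limma's F test). For *scl-20* the difference was -3.90 and the span 4.31 (adjusted p = 0.00158). Members outside that group showed the same, such as *cyp-35A3* (difference 4.65, span 7.59) and *srx-70* (difference 2.07, span 4.57), so it was not particular to the 2 genes.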

How the results depend on the processing

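The 243 higher and 237 lower calls, and the 185 and 153 members, were within 1.5 times under quantile normalization (237 and 286 calls), no filter, the mean over probes, slide as a random block and the replicate block (243 and 237 calls). Replicate numbers did not pair the samples, with correlations of same-numbered deviations of -0.298 to 0.177, and 2 named genes lost an adjusted p below 0.05 under the block. Adjusted p alone passed 2767 higher and 2354 lower genes. Under normexp the calls were 105 and 109 and the members 85 and 73. With the authors' log2 table they were 101 and 106, and 80 and 79. Only probes above background on all 8 arrays, 14991 genes, gave 129 and 104 calls and 106 and 80 members. The rest of the 185 and 153 members were dark on at least 1 array. Leaving out 1 array gave 202 to 267 higher calls, 228 to 249 lower calls, 1911 to 2909 and 1430 to 2239 genes beyond the others, and 160 to 208 and 153 to 170 members. The highest counts of genes beyond, 2909 and 2239, came without *hpl-1*; *hpl-2* replicate 1, where 1 value had to lie beyond the others.

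Without the triple mutant in the mean 405 genes were called higher, 3023 and 2165 were beyond the others and 313 were higher members. Without *hpl-2*; *his-24* the calls were 388 and 399, the genes beyond 3350 and 3135 and the members 318 and 371. Without *hpl-1 his-24* the genes beyond were 3283 and 2875 and the lower members 263. On the 4 arrays of the shared slides, where only the triple mutant is the comparison, 478 genes were called lower with slide as a fixed block and 474 without, an alternative chosen after seeing the data, all of them lower members, and 5966 and 6340 were beyond. The share of higher among all calls was 50.6%, against 64.2% without the triple mutant and 31.8% on the shared slides.

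Of 112 named identifiers, 6 values turned direction under an alternative. *hpl-2* turned to 0.31 (K01G5.2a) and 0.33 (K01G5.2b) and *nob-1* (Y75B8A.2b) to 0.40 without *hpl-1 his-24*. On the shared slides K01G5.2b turned to 0.35 with the slide block, and *hil-7* (C01B10.5c) turned to -0.89 both with the block and without it. A further 49 values lost and 10 gained an adjusted p below 0.05 of 2308 in all. *egl-5* lost it without either *hpl-1*; *hpl-2* replicate (adjusted p = 0.0725 without replicate 1 and 0.0547 without replicate 2), *hil-1* without replicate 2 (0.064), and *hil-5* without 5 of the 8 arrays in turn. The cause was not tested. An F test and a mean over genotypes rest on 2 arrays each.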
